A study of Mus musculus with 4 samples.

Results

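The comparison described here is of 2 of the 4 RNA sequencing libraries of the study, the mutant upper molar and the control upper molar, both chosen by their labels. Each library holds mesenchyme of mouse tooth germs at embryonic day 13.5, taken from frozen head sections by laser capture microdissection. The control was Bmp4f/+, with 1 floxed Bmp4 allele, and the mutant was Bmp4f/f;Wnt1Cre, with 2 floxed alleles and a Cre transgene driven by Wnt1. Both were on a mixed background. Wnt1-Cre is active in the neural crest, the embryonic cell population from which tooth mesenchyme derives, so any Bmp4 made by other cells of the tooth germ is not removed. The control's label names no Wnt1Cre, so whatever the Cre transgene does by itself and what the missing Bmp4 does cannot be told apart. By the series' design text RNA came from pools of 3 control and mutant pairs, and each genotype has 1 upper molar library. There is therefore no spread between embryos or pools, no p-value is given, and a gene is counted where it differed by at least 2-fold. The 2 other libraries, of the lower molar with the same genotypes and age, are used as a second and separate comparison.

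Bmp4 is a secreted ligand of the bone morphogenetic protein (BMP) family. It binds a pair of receptor kinases on the receiving cell, which phosphorylate Smad1, Smad5 and Smad9, and these enter the nucleus with Smad4 and act on targets such as the Id genes, Msx2, Smad6 and Smad7. In the tooth germ, Bmp4 is made first by the dental epithelium and then by the mesenchyme, where it is known to act together with Msx1. At this age the molar is passing from the bud to the cap stage, when mesenchymal signals act back on the epithelium.

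Values are FPKM, a fragment count divided by transcript length and by the number of mapped reads, summed per gene. A difference is the mutant value minus the control value on the log2(FPKM + 1) scale, so that a negative value is lower in the mutant, and 1 on this scale is called 2-fold. Adding 1 understates the differences of weakly expressed genes. A gene whose plain FPKM ratio passes 2 can thus fall short of 2-fold as counted here, as Bmp7 does (ratio 2.11, difference 0.65). Genes were compared where the mean of the 2 upper libraries was at least 1 FPKM, the longest transcript had at least 300 bases, and no transcript had a failed estimate. This left 10376 of 22072 listed genes. The control and mutant upper libraries held about 4840000 and 5550000 approximate reads on transcripts, and the control and mutant lower libraries about 4820000 and 5000000. Intervals given for single genes are 95% Clopper-Pearson intervals of the mutant to control FPKM ratio. These intervals were computed from the approximate reads and scaled to FPKM. They cover counting error only, since amplified reads are not independent molecules, and say nothing of the spread between embryos.

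Bmp4 itself checks the labels. Bmp4 (chromosome 14, 47003196 to 47010274, mm9, 1 RefSeq transcript) was at 24.8 FPKM in the control upper molar against 4.75 FPKM in the mutant, from about 646 and 141 reads. In the lower molar it was at 27.2 FPKM in the control against 4.897 FPKM in the mutant. Both mutant libraries were thus low and both control libraries high, as the labels have it. In the upper molar the mutant held 19.2% of the control level (95% counting interval 15.9% to 23.1%), a difference of -2.16, and of all genes compared Gm9846 and Akr1b3 alone had a lower difference, both with near-0 mutant estimates that are uncertain. Which exon Cre removes is not given in the sources used here, and the gene's FPKM counts all exons. In bulk tissue of this kind, fewer cells of a type and less RNA per cell cannot be told apart. None of the 13 genes within 1 Mb of Bmp4 that passed the filter differed by 2-fold in the upper molar. There 7 were below 0 and 6 above, with a median of -0.02. In the lower molar 11 of the 13 were below 0 and 2 above, with a median of -0.13. The median of all genes there was -0.05. Gm15217, in the same window but with a mean under the filter, had no FPKM in either mutant library and is described in the last paragraph.

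The captured tissue carried the markers of its label. The summed FPKM of 12 dental mesenchyme markers, among them Msx1, Pax9, Lhx6 and Barx1, was 841 in the control and 876 in the mutant upper molar, and 6 of the 12 were below 0 and 6 above. Pitx1, a homeobox gene of the lower jaw, was at 0.862 and 1.204 FPKM in the upper molar libraries against 30.2 and 41.3 FPKM in the lower molar libraries, so the molars were separated as labelled. Of 14 markers of dental and oral epithelium, the tissue next to the captured mesenchyme, 4 passed the filter, and the 14 summed to 22.5 FPKM in the control against 25.5 FPKM in the mutant.

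The 2 upper libraries were alike for most genes. Of the 10376 genes compared, 29 (0.279%) were at least 2-fold lower and 28 (0.27%) at least 2-fold higher in the mutant, and 46.7% were below 0. The median difference was 0.02, against -0.05 in the lower molar, and the SD across genes in the upper molar was 0.27. The scatter narrowed with expression. Between 1 and 2 FPKM the central 95% of genes lay from -0.56 to 0.64, and at 100 FPKM or more from -0.21 to 0.50, where none of 193 genes differed by 2-fold. The genes just inside the 2-fold mark included S1pr1 (-1.03) and Bid (1.03), and those just outside included Smad9 (-0.99), Col12a1 (0.99) and Sfrp2 (0.97). These 5 genes hardly differ in the size of their differences.

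**Figure D1:**
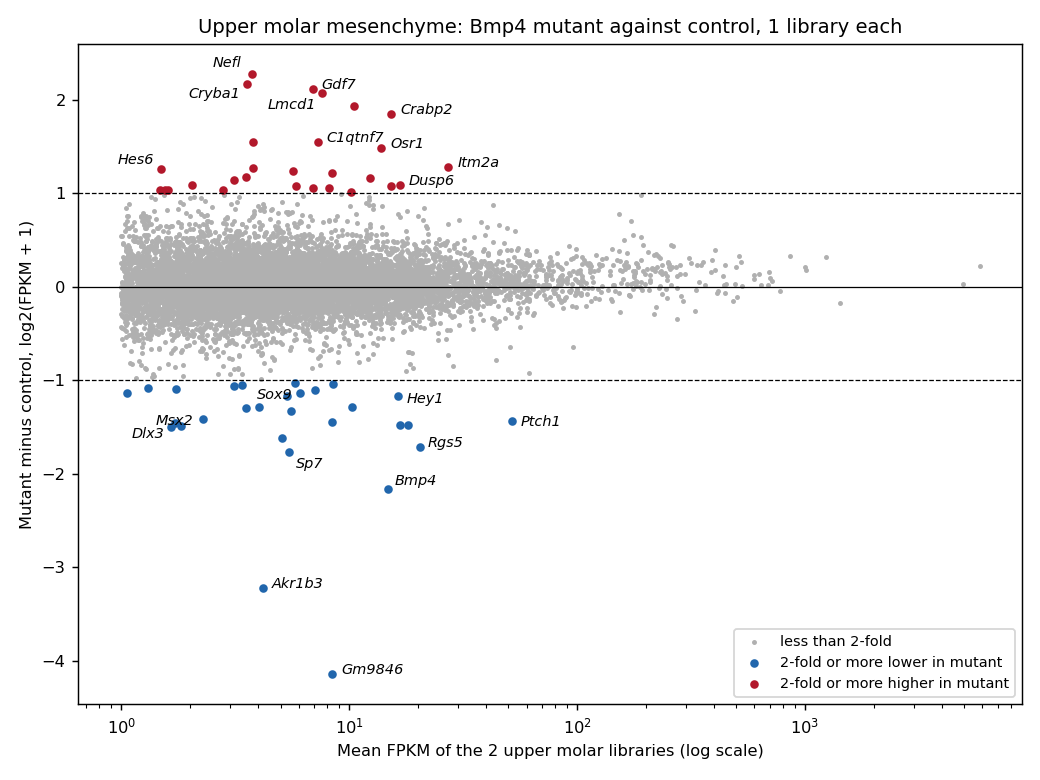
Difference between mutant and control upper molar, on log2(FPKM + 1), against the mean FPKM of both libraries on a log scale, for 10376 genes. Each point is a gene, dashed lines mark 2-fold, blue points are the 29 genes lower and red points the 28 genes higher in the mutant by at least that much, and Bmp4 lies at -2.16.

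Genes known to respond to BMP signals were lower in the mutant upper molar almost throughout the list. Of 16 genes listed, 14 passed the filter. Of these, 13 were below 0 and 1 above, 3 were at least 2-fold lower and none higher, with a median of -0.49 where the median of all genes was 0.02. The gene lists, here and in the other paragraphs, were chosen with earlier results of these data known. Counts and medians of a list are therefore a description and not a test of the pathway. Msx2, a homeobox transcription factor of tooth and skull, was at 3.77 FPKM in the control upper molar against 0.783 FPKM in the mutant, and at 3.1 and 0.399 FPKM in the control and mutant lower molar. Both mutant libraries lay below both controls, and the upper molar mutant held 20.8% of the control level (12.8% to 32.1%). Dlx3, a homeobox gene of the same tissues, was at 2.998 and 0.452 FPKM in the upper and 2.11 and 0.265 FPKM in the lower molar, control first. Hey1, a transcriptional repressor that answers to BMP as well as Notch signals, was at 22.98 and 9.68 FPKM in the upper and 18.2 and 3.53 FPKM in the lower molar. For Dlx3 and Hey1 too the genotypes did not overlap, and the differences in the upper molar were -1.46 and -1.17. The share of all genes whose genotypes do not overlap is not given here, and these genes were named partly for their upper molar differences. Non-overlap, here and in later paragraphs, is therefore a description only.

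The Id genes, which code for inhibitors of basic helix-loop-helix factors, were lower without reaching 2-fold. Id3 was at 81.2 FPKM in the control upper molar against 42.2 FPKM in the mutant (-0.93), and at 60.1 and 21.4 FPKM in the lower molar (-1.45). Id2 differed by -0.52, Id4 by -0.40 and Id1 by -0.31 in the upper molar. The counting interval of the ratio included 1 for Id4 (0.454 to 1.01) and Id1 (0.526 to 1.123), but not for Id2 (0.549 to 0.826). Id1 differed by -1.03 in the lower molar, at 5.31 and 4.097 FPKM in the upper against 5.104 and 1.99 FPKM in the lower. With 1 library per genotype and molar, the difference between the molars was not tested. The inhibitory Smads, feedback inhibitors of the pathway, were at 6.16 and 3.74 FPKM (Smad6) and 8.37 and 5.84 FPKM (Smad7) in the upper molar, control first. Bambi, a receptor without a kinase that blocks signalling, was at 1.77 and 0.692 FPKM. The remaining members lay nearer 0. Msx1, which acts with Bmp4 in tooth mesenchyme, was at 149.6 and 135 FPKM (-0.15), and Tbx2, the member above 0, at 8.897 and 8.99 FPKM (0.01).

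The promoters of Bmp4, Spock1 and Ptch1, which are among the 29 lower genes, and of the BMP response gene Id2, which is not (-0.52), are given as examples. Each of these examples holds a marked motif. They do not stand for the lower genes as a set, where GGCGCC was in 4 of 19 promoters and CACGTG in 4 of 19. The runs below are the 250 bases before the annotated start in RefSeq of GRCm38.p6, given 5′ to 3′ on the gene's strand. Capitals mark GGCGCC, a GC-rich Smad1/5 palindrome, or, in Bmp4, CACGTG, the E-box bound by Hey and Hes repressors among other factors. GGCGCC starts at -161 in Ptch1, -66 in Spock1 and -231 in Id2, and CACGTG at -188 in Bmp4, counted back from the start site. The Bmp4 promoter lies at chr14:46390670-46390919, Ptch1 at chr13:63565736-63565985, Spock1 at chr13:57908333-57908582 and Id2 at chr12:25096093-25096342, all on the minus strand of GRCm38.p6.
Bmp4: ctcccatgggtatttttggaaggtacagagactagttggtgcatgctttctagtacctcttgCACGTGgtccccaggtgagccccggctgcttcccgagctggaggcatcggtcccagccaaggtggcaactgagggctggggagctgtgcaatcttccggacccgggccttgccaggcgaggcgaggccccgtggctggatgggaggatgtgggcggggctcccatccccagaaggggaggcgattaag
Ptch1: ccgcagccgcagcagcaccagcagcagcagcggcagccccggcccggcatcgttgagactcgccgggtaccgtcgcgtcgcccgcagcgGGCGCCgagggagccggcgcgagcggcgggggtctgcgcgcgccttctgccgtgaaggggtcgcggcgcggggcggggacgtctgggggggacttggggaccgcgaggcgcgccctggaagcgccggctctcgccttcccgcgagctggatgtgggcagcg
Spock1: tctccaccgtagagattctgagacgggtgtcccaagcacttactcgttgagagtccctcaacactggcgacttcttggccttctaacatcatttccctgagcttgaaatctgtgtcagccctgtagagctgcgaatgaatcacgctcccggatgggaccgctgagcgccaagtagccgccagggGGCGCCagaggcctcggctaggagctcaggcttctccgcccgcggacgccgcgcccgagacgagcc
Id2: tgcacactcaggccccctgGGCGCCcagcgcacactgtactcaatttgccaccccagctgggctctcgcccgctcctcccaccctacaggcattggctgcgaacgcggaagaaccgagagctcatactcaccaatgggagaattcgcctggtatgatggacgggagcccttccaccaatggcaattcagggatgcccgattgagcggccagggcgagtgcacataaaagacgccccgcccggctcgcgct

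Over both strands, GGCGCC was in 4 of 19 promoters (21.1%) of the 16 lower genes that the RefSeq table holds, belonging to Ptch1, Spock1 and Tcf7, and in 1 of 25 promoters (4%) of 21 higher genes. It was in 17.8% of the 9515 promoters of genes compared and in 9.59% of all 32851 promoters of the same length. CACGTG was in 4 of 19 promoters (21.1%) of lower genes, those of Bmp4, Mical2, Pgm2l1 and Slc39a8, in 0 of 25 of higher genes, and in 8.52% of promoters of genes compared and 6.02% of all promoters. The Smad palindrome GTCTAGAC, the Gli motif GACCACCCA and the Lef/Tcf motif CTTTGAT were in none of the 19 and none of the 25, against 0.189%, 0.2% and 2.22% of promoters of genes compared and 0.167%, 0.225% and 3.21% of all. None of the 5 motifs contains another. With 19 and 25 promoters these shares are a description, and a match is not a bound site.

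Among the other ligands of the family, Gdf7 stood at the opposite end from Bmp4. Gdf7, a BMP family ligand, was at 1.98 FPKM in the control upper molar against 11.9 FPKM in the mutant, from about 36 and 247 reads, and at 2.98 and 8.95 FPKM in the lower molar. Both mutant libraries lay above both controls, and the upper molar ratio was 5.99 (4.25 to 8.84). Of 13 ligands listed, 7 passed the filter, 1 of them at least 2-fold lower (Bmp4) and 1 at least 2-fold higher (Gdf7). Bmp6 was at 10.7 and 15.4 FPKM and Bmp7 at 1.06 and 2.23 FPKM in the upper molar, control first. Both were higher in the mutant, by 0.49 and 0.65 on the log2(FPKM + 1) scale. In the lower molar Bmp6 was at 10.5 and 7.84 FPKM, lower in the mutant. Bmp3, which opposes other BMPs, was at 5.17 and 2.82 FPKM in the upper molar. Bmp5 did not pass the filter, at 0.686 and 0.0493 FPKM from about 23 and 2 reads, a ratio of 0.0718 (0.00876 to 0.3103).

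Receptors and signalling Smads differed little, Smad9 excepted. Of 11 listed, 9 passed the filter, none differed by 2-fold, 6 were below 0 and 3 above, and the median was -0.09. Smad9, a receptor-activated Smad, was at 5.796 and 2.42 FPKM in the upper and 4.35 and 1.15 FPKM in the lower molar, control first. The upper molar mutant held 41.7% of the control, just short of 2-fold on the log2(FPKM + 1) scale (-0.99). Smad1 (-0.09), Smad4 (-0.10) and the type I receptor Bmpr1a (0.14) were within 0.2 of 0. Smad5 was left out because 1 of its estimates failed.

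Secreted BMP antagonists went both ways. Of 15 listed, 10 passed the filter, 5 below and 5 above 0, none at 2-fold, with a median of 0.01. Sostdc1, an antagonist of BMPs and modulator of Wnt signals, was the most abundant that was lower, at 117 and 74.4 FPKM in the upper molar (-0.64). Nbl1, of the gremlin and DAN group, was at 1.1 and 3.08 FPKM (0.96). Its plain FPKM ratio was 2.8, but it fell short of 2-fold on the log2(FPKM + 1) scale. Nog and Grem1, both BMP traps, were too low to pass the filter. Nog was at 0.987 and 0.0403 FPKM in the upper molar, about 25 reads against 1, a ratio of 0.0409 (0.000859 to 0.215), and at 0.655 and 0.0425 FPKM in the lower molar. Grem1 was at 0.595 and 0.0402 FPKM in the upper molar, about 13 reads against 1, a ratio of 0.0675 (0.001596 to 0.452), and at 1.05 and 1.19 FPKM in the lower.

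Hedgehog signals reach the dental mesenchyme from the epithelium. The receptor Ptch1 holds the pathway off in the absence of ligand and is itself a target of the Gli factors. Ptch1 was at 75.98 FPKM in the control upper molar against 27.5 FPKM in the mutant, and at 49.7 and 24.8 FPKM in the lower molar. It was the most abundant of the 29 lower genes, and its upper molar mutant held 36.2% of the control (34.2% to 38.2%). Of 15 pathway genes listed, 13 passed the filter, 10 below 0 and 3 above, with Ptch1 alone at 2-fold and a median of -0.21. Gli1, a transcription factor and target, was at 23.8 and 14.2 FPKM (-0.71) and Foxf2, a forkhead gene known to respond to hedgehog, at 13.7 and 7.94 FPKM (-0.71). Hhip, a hedgehog-binding target, was below the filter at 0.614 and 0.122 FPKM, from about 73 and 16 reads. Genes that carry the signal inside the cell were nearer 0, with Smo at -0.20, Gli2 at -0.25 and Gli3 at -0.13, and the co-receptor Cdon was higher, at 5.97 and 10.4 FPKM. Shh itself was listed at 0 in both upper libraries.

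A transcription factor of the osteoblast lineage was among the lowest genes. Sp7 (osterix), needed for osteoblast formation, was at 8.92 FPKM in the control upper molar against 1.92 FPKM in the mutant, and at 7.04 and 4.25 FPKM in the lower molar. Its upper molar mutant held 21.5% of the control (16.1% to 28.2%), and the genotypes did not overlap. Runx2, upstream of Sp7 in bone, was at 62.2 and 39.5 FPKM in control and mutant (-0.64), and Alpl, the alkaline phosphatase of mineralizing cells, at 4.53 and 1.99 FPKM (-0.89) in the upper molar. Of 16 genes listed for the lineage, 10 passed the filter, 2 were at least 2-fold lower, Sp7 among them, and none higher, 7 were below 0 and 3 above, and the median was -0.31. Those above 0 were Phex (0.90), a peptidase of mineralized tissue, and the type I collagen genes Col1a2 (0.40) and Col1a1 (0.14). Markers of mature osteoblasts, Bglap, Dmp1, Ibsp and Spp1, were all under 0.1 FPKM in both upper libraries.

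In the cartilage list, Sox9, the transcription factor that starts cartilage formation, was at 8.78 and 3.43 FPKM in the upper and 5.04 and 1.602 FPKM in the lower molar, control first. Both mutants lay below both controls, with an upper difference of -1.14. Its partners Sox6 (-0.64) and Sox5 (-0.46) were lower by less than 2-fold, and Col2a1, the main cartilage collagen, was at 4.197 and 4.17 FPKM (-0.01). Of 17 genes listed, 6 passed the filter.

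The transcription factors of the tooth field were spread around 0. Of 28 listed, 25 passed the filter, 14 below and 11 above 0, with a median of -0.05, 2 at least 2-fold lower (Msx2 and Dlx3) and 1 higher. The higher gene was Osr1, a zinc finger factor, at 6.81 FPKM in the control upper molar against 20.9 FPKM in the mutant, and at 22.6 and 50.1 FPKM in the lower molar. Within each molar the mutant was higher, although the mutant upper molar lay below the control lower molar. Its relative Osr2, known to restrict tooth formation to the molar row, was at 35.1 and 56.04 FPKM in the upper molar (0.66). Pax9, a paired-box factor of the molar field, was at 57.4 and 74.9 FPKM (0.38) and Barx1, a molar homeobox gene, at 96.96 and 118 FPKM (0.28). Lef1, a nuclear partner of beta-catenin needed for molar formation, was at 51.1 and 39.4 FPKM (-0.37). Snai1, a zinc finger repressor outside these lists, was at 10.1 and 4.14 FPKM (-1.11).

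**Figure D2:**
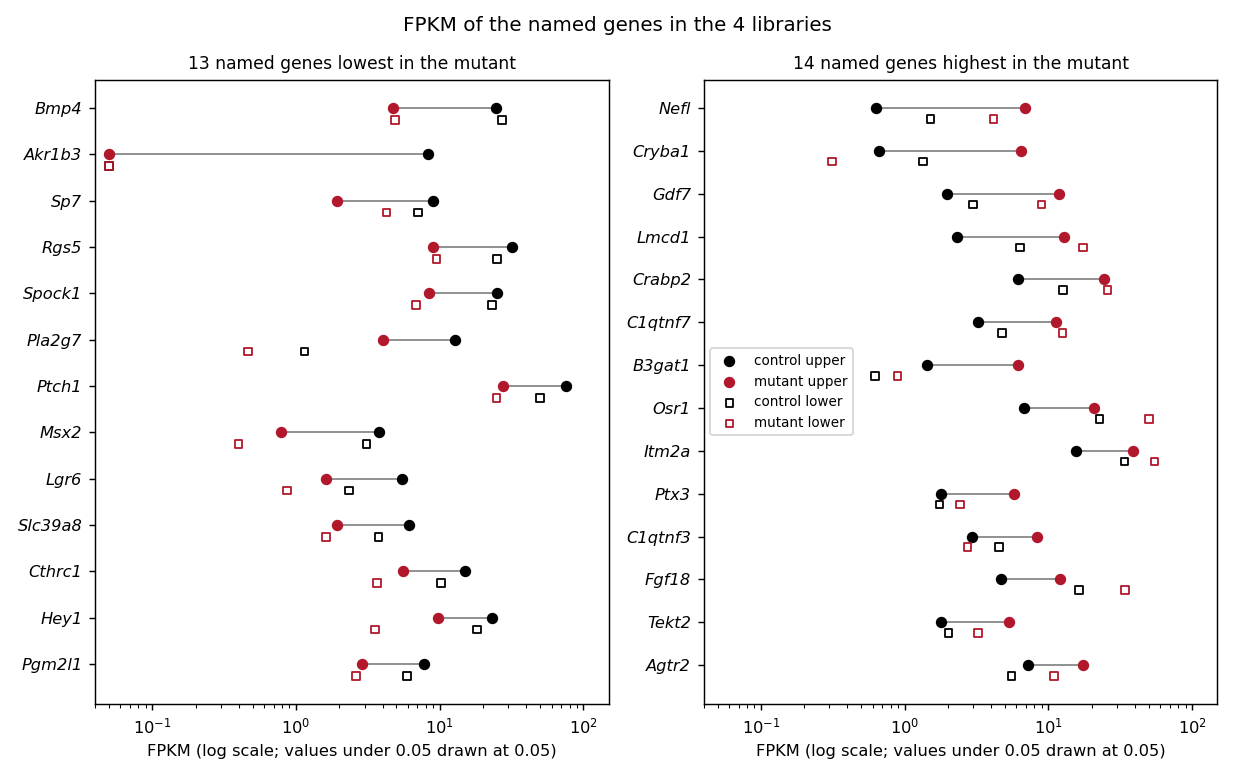
FPKM on a log scale in the 4 libraries for 13 of the lowest and 14 of the highest genes whose mean reached 2 FPKM, with grey lines joining control and mutant upper molar. Filled circles are the upper molar, open squares the lower molar, black the control and red the mutant, and values under 0.05 FPKM are drawn at 0.05. Bmp4 is drawn at 24.8 and 4.75 FPKM in the upper molar, and the 2 lower molar squares lie at the floor for Akr1b3.

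Notch receptors are activated by ligands on neighbouring cells and act through the Hes and Hey repressors. Of 21 pathway genes listed, 15 passed the filter, 12 below 0 and 3 above, 1 at least 2-fold lower (Hey1) and 1 higher (Hes6), with a median of -0.15. Hes6, an inhibitor of Hes1, was at 0.4698 and 2.51 FPKM in the upper molar, from about 8 and 50 reads, and at 1.05 and 1.21 FPKM in the lower. Heyl was at 1.599 and 0.614 FPKM, the ligand Dll4 at 1.29 and 0.706 FPKM and the ligand Jag1 at 12.2 and 9.204 FPKM in the upper molar. All were lower in the mutant, by -0.69, -0.43 and -0.37 on the log2(FPKM + 1) scale. Hes1, the best known target, was at 6.999 and 6.42 FPKM (-0.11).

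Endothelial markers were likewise mostly below 0 in the upper molar. The 16 endothelial markers listed summed to 80.9 FPKM in the control against 62.2 FPKM in the mutant upper molar, and to 73.8 and 68.8 FPKM in the lower molar. Of the 15 that passed the filter, 14 were below 0 in the upper molar, none at 2-fold, with a median of -0.23. Of all genes compared there, 46.7% were below 0. In the lower molar 9 of the 15 were below 0 and 6 above, with a median of -0.05, as for all genes there. Cdh5, the vascular cadherin, was at 16.3 and 10.3 FPKM, and S1pr1, a sphingosine phosphate receptor of endothelium, at 8.13 and 3.48 FPKM in the upper molar. The part of endothelial RNA in the values of Hey1, Dll4 and S1pr1 was not tested. Rgs5, a regulator of G protein signalling known from pericytes, was at 31.9 and 9.03 FPKM in the upper and 25.1 and 9.48 FPKM in the lower molar, control first, a difference of -1.71 in the upper. The 13 pericyte and smooth muscle markers summed to 70.4 and 50.7 FPKM in the upper molar. Without Rgs5 they summed to 38.5 and 41.6 FPKM in the upper and to 42.3 and 38.8 FPKM in the lower molar. Of the 7 that passed the filter, 4 were below 0 and 3 above, with a median of -0.28. Notch3, a receptor of pericytes and smooth muscle, was at 8.701 and 6.51 FPKM in the upper molar, while Pdgfrb, a receptor of pericytes and of mesenchyme, was at 14.1 and 20.2 FPKM.

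For Wnt signalling, the target genes were split evenly around 0. Of 13 targets listed, 12 passed the filter, 6 below and 6 above 0, with a median of 0.01. The 2 at least 2-fold lower were Lgr6, an R-spondin receptor, at 5.45 and 1.62 FPKM, and Tcf7, a nuclear partner of beta-catenin, at 11.8 and 5.196 FPKM in the upper molar. In the lower molar Lgr6 was at 2.33 and 0.865 FPKM and Tcf7 at 9.31 and 4.82 FPKM, so the mutant was lower there as well. Axin2, a general feedback target, was at 18.8 and 21.1 FPKM (0.16), and Tnfrsf19 was higher at 5.95 and 10.3 FPKM. Of 4 Wnt ligands that passed the filter among 15 listed, none differed by 2-fold, and Wnt5a, the most abundant, was at 18.8 and 20.2 FPKM. Wnt1 was listed at 0 in all 4 libraries.

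Secreted Wnt inhibitors and R-spondins had a median above 0. Of 15 listed, 9 passed the filter, 6 above 0 and 3 below, none at 2-fold, with a median of 0.22. Sfrp2, a secreted frizzled-related inhibitor, was at 129 and 254 FPKM in the upper molar (0.97), on the largest read numbers of the list. The R-spondins Rspo1 and Rspo3, which strengthen Wnt signals, were at 4.42 and 7.67 FPKM and at 9.45 and 15.3 FPKM. Dkk2, a Wnt modulator, was at 2.61 and 4.41 FPKM in the upper and 10.2 and 19.7 FPKM in the lower molar. Dkk3 was lower at 24.7 and 17.97 FPKM. Dkk1, a strong inhibitor, did not pass the filter, at 1.04 and 0.137 FPKM from about 30 and 5 reads.

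Feedback and target genes of FGF signalling through the ERK kinases were mostly higher in the mutant upper molar. Of 15 listed, 13 passed the filter, 11 above 0 and 2 below, 2 at least 2-fold higher and none lower, with a median of 0.52 in the upper molar against 0.02 in the lower. Dusp6, a phosphatase that switches ERK off, was at 10.3 FPKM in the control upper molar against 23.01 FPKM in the mutant, and at 10.5 and 17.1 FPKM in the lower molar. The mutants lay above both controls, and the upper ratio was 2.23 (1.97 to 2.51). Spry4, a Sprouty inhibitor of receptor kinases, was at 8.32 and 16.1 FPKM in the upper and 7.77 and 7.8 FPKM in the lower molar. In the lower molar Spry4 thus differed by 0.00 against 0.87 in the upper, a difference between molars that was not tested. Spry1 was at 8.73 and 16.8 FPKM in the upper and 9.36 and 13.02 FPKM in the lower molar. Il17rd, another inhibitor, differed by 0.52 in the upper molar against 0.03 in the lower, and Etv5, a transcriptional target, by 0.55 and 0.34. Etv4 was lower in both, by -0.43 and -0.80.

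Egr1, an immediate early gene that is also an ERK target, was at 3.39 and 8.25 FPKM in the upper molar and at 3.75 and 2.59 FPKM in the lower molar, control first. The mutant upper molar alone was high. Egr1 also responds to handling of tissue. Of 22 immediate early and heat shock genes listed, 15 passed the filter, 10 above 0 and 5 below, 1 at 2-fold (Egr1), with a median of 0.20. Jund was at 3.58 and 6.96 FPKM, while Fosl2 (-0.68) and Klf4 (-0.58) were lower, and Fos was under the filter at 0.272 and 0.103 FPKM. The part of this response in the values of Egr1 was not tested.

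Ligands and receptors of the FGF family had a median near 0. Of 17 listed, 7 passed the filter, 4 below and 3 above 0, with a median of -0.04. Fgf18, a ligand of bone and cartilage, was the member at 2-fold, at 4.67 and 12.1 FPKM in the upper and 16.4 and 34 FPKM in the lower molar, control first. Fgfr1, the main receptor of mesenchyme, was at 19.4 and 25.6 FPKM and Fgfr2 at 8.48 and 4.99 FPKM. Fgf10, a mesenchymal ligand for the epithelium, was at 2.13 and 2.04 FPKM. Fgf3 was at 0.225 and 0.273 FPKM, too low to compare.

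The largest difference among retinoic acid genes was that of Crabp2. Crabp2, which binds retinoic acid in the cell and delivers it to its nuclear receptor, was at 6.12 FPKM in the control upper molar against 24.6 FPKM in the mutant, and at 12.6 and 25.8 FPKM in the lower molar. Each mutant exceeded each control, and the upper ratio was 4.01 (3.104 to 5.26). Cyp26b1, which degrades retinoic acid, was at 20.9 and 33.7 FPKM. The synthetic enzymes Rdh10 (-0.65) and Aldh1a2 (-0.36) were lower, and Aldh1a2 differed by -1.52 in the lower molar. Of 18 pathway genes listed, 14 passed the filter, 8 above and 6 below 0, 2 at least 2-fold higher, Crabp2 among them, with a median of 0.11.

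Matrix genes gave a few large single differences. Spock1, a secreted proteoglycan (testican), was at 25.2 and 8.37 FPKM in the upper and 23.1 and 6.87 FPKM in the lower molar, control first, an upper difference of -1.48. Cthrc1, a secreted collagen triple helix protein, was at 15 and 5.56 FPKM in the upper and 10.2 and 3.65 FPKM in the lower molar. These 2 were the members at 2-fold among 28 proteoglycan and matricellular genes that passed the filter, 15 of them below and 13 above 0. Postn (periostin), one of the most abundant, was at 113 and 193 FPKM in the upper molar (0.77). Of 16 collagen genes that passed, none reached 2-fold on the log2(FPKM + 1) scale. Col12a1, a collagen that coats fibrils, was closest at 5.87 and 12.6 FPKM (0.99), a plain ratio of 2.15. All 9 glypicans and syndecans, cell surface co-receptors, were above 0 in the upper molar, with a median of 0.11. Of all genes compared there, 46.7% were below 0. In the lower molar 7 of the 9 were above 0 and 2 below. In the TGF-beta and activin list none of 14 differed by 2-fold, with Tgfbi at 9.601 and 5.34 FPKM and the activin subunit Inhba at 81.8 and 97.9 FPKM.

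Several of the highest genes belong to none of these pathways. Lmcd1, a LIM domain protein, was at 2.31 and 12.9 FPKM in the upper and 6.36 and 17.3 FPKM in the lower molar, control first, an upper ratio of 5.597 (4.19 to 7.69). C1qtnf7, a secreted protein of the C1q and TNF related family, was at 3.21 and 11.3 FPKM in the upper and 4.75 and 12.5 FPKM in the lower molar. Agtr2, the type 2 angiotensin II receptor, was at 7.26 and 17.5 FPKM in the upper and 5.53 and 10.9 FPKM in the lower molar. In all 3 the mutant was higher in both molars. Itm2a, a membrane protein of developing cartilage and muscle, was at 15.5 and 39.1 FPKM in the upper molar and the most abundant of the 28 higher genes. Slit2, a guidance ligand, was at 4.16 and 9.72 FPKM, the 1 member at 2-fold among 30 axon guidance genes that passed the filter (14 above and 16 below 0). Agtr2, Egfl6 and Itm2a are on the X chromosome and made up 10.7% of the 28 higher genes, where X-linked genes made up 3.45% of the 29 lower genes and 3.63% of all genes compared. Xist was at 0 and 0.0275 FPKM, and the Y-linked Kdm5d at 4.36 and 4.27 FPKM, in the upper molar libraries.

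Nefl, the light chain of neurofilaments, had the largest positive difference. It was at 0.632 FPKM in the control upper molar against 6.88 FPKM in the mutant, from about 17 and 205 reads, and at 1.52 and 4.15 FPKM in the lower molar. The 17 neuronal markers listed summed to 14.96 and 23.2 FPKM in the upper molar, and without Nefl to 14.3 and 16.3 FPKM. Isl1, Nefh, Pou4f1, Prph and Scn9a were under 0.1 FPKM in both upper libraries. Nefm was at 0.07604 and 0.604 FPKM, and Tubb3 at 0.9998 and 0.0858 FPKM, both under the filter. The 3 that passed the filter, Nefl, Gap43 (0.25) and Dcx (0.21), were all above 0. The part of neuronal RNA in the value of Nefl was not tested. The 10 Schwann cell markers summed to 2.75 and 1.995 FPKM.

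**Figure D3:**
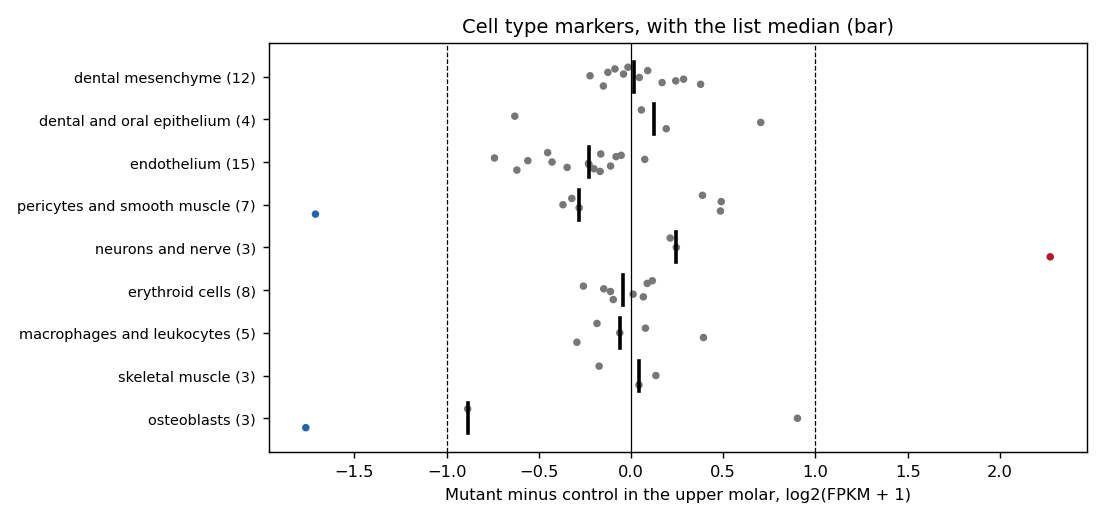
Difference between mutant and control upper molar, on log2(FPKM + 1), of each cell type marker that passed the filter (points) and the median of its list (bars), with the number of markers in parentheses and dashed lines at 2-fold. The 12 dental mesenchyme markers centre on 0.01 and the 15 endothelial markers on -0.23, and the markers past 2-fold are Rgs5, Sp7 and Nefl.

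Genes of the cell cycle showed small differences of 1 sign in mitosis and of both signs in DNA replication. Of 24 mitotic genes, all of which passed the filter, 23 were below 0 and none differed by 2-fold, with a median of -0.20 in the upper molar against -0.46 in the lower. Mki67, a marker of cycling cells, was at 64.7 and 47.8 FPKM in the upper and 64.03 and 41.2 FPKM in the lower molar. The median of the 24 DNA replication genes was 0.02 in the upper molar, 10 below and 14 above 0, and -0.34 in the lower molar, where 23 were below 0. Cdt1, which licenses replication origins, was at 5.698 and 7.66 FPKM in the upper and 8.41 and 5.49 FPKM in the lower molar. The differences between molars were not tested. Among apoptosis and p53 target genes 9 were above and 6 below 0, with none at 2-fold, and Bax, which opens mitochondria in cell death, was at 3.9 and 6.75 FPKM.

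Glycolytic and ribosomal genes were shifted upward by small amounts. Of 22 hypoxia and glycolysis genes that passed the filter, 18 were above 0, none at 2-fold, with a median of 0.29 in the upper molar against 0.10 in the lower. Medians of all genes were 0.02 and -0.05, upper molar first. Tpi1, an enzyme of glycolysis, was at 22.8 and 37.8 FPKM and the lactate exporter Slc16a3 at 1.32 and 2.52 FPKM. All 30 ribosomal protein genes listed were above 0, with a median of 0.20 in the upper molar against 0.18 in the lower. Short transcripts as a whole were also higher in the mutant. The median difference was 0.15 for 805 genes whose longest transcript was under 1000 bases, 0.07 from 1000 to under 2000 bases, 0.02 from 2000 to under 4000 bases, and -0.04 for 3153 genes of 4000 bases or more. After subtraction of the median of the length class, the median was 0.07 for ribosomal proteins, 0.26 for hypoxia and glycolysis and -0.22 for mitosis. In the lower molar the genes under 1000 bases had a median of 0.05, where that of the ribosomal list was 0.18. The part of transcript length in these shifts was not tested further.

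**Figure D4:**
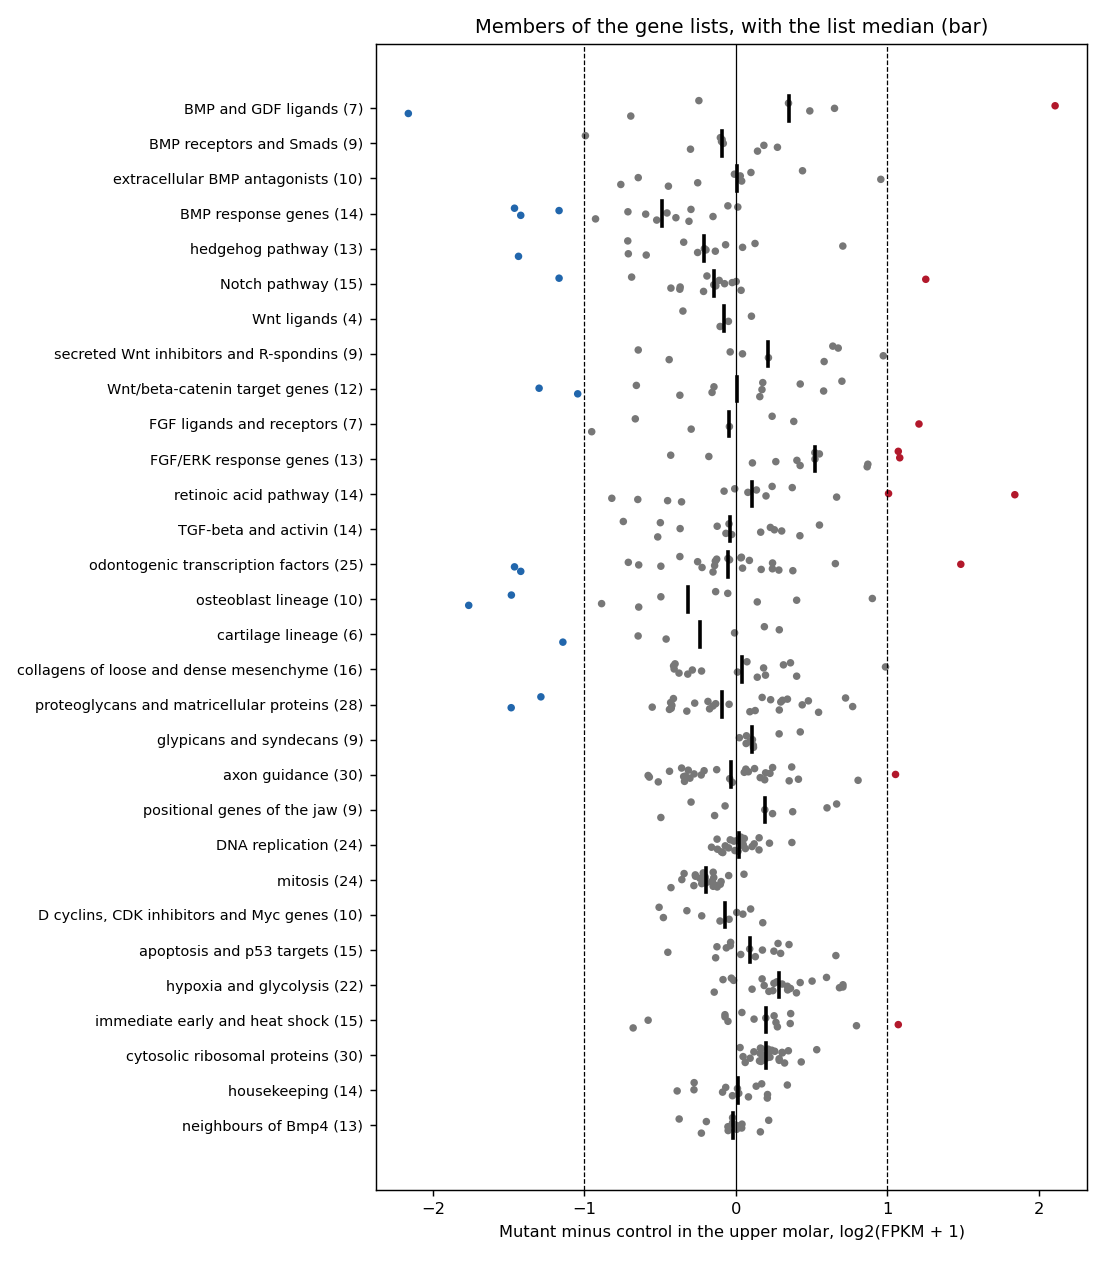
Difference between mutant and control upper molar, on log2(FPKM + 1), of each list member that passed the filter (points) and the list median (bars), with the number of members in parentheses. Dashed lines mark 2-fold and colored points lie past it. BMP response genes lie to the left with a median of -0.49 and FGF/ERK response genes to the right with a median of 0.52. The lists were chosen with earlier results of these data known.

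The lower molar, compared in the same way and sharing no library with the upper, had 42 genes (0.405%) at least 2-fold lower and 29 (0.279%) at least 2-fold higher of 10380 compared. The median of all genes compared there was -0.05, against 0.02 in the upper molar. The share of all genes below 0 in the lower molar, against which the counts below would be read, is not given here. Of the 29 genes lower in the upper molar, 22 were also compared in the lower molar, and all 22 were below 0 there, where 10 reached 2-fold: Bmp4, Cthrc1, Dlx3, Hey1, Meox1, Mical2, Msx2, Rgs5, Sox9 and Spock1. Of the 28 higher genes, 24 were compared, 21 were above 0 and 6 reached 2-fold: C1qtnf7, Fgf18, Gdf7, Lmcd1, Nefl and Osr1. The median of the 22 was -1.29 in the upper molar against -0.95 in the lower, and those of the 24 were 1.17 and 0.62. Since these genes were picked for large values in the upper molar, the smaller lower molar medians are a description and were not tested. Hey1 differed by -1.17 in the upper molar against -2.08 in the lower, and Mical2 by -1.05 and -1.59, so for these the lower molar difference was the larger. Sp7 differed by -1.76 and -0.61, with the larger difference in the upper molar. Whether upper and lower molars came from the same embryos is not stated in the labels.

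**Figure D5:**
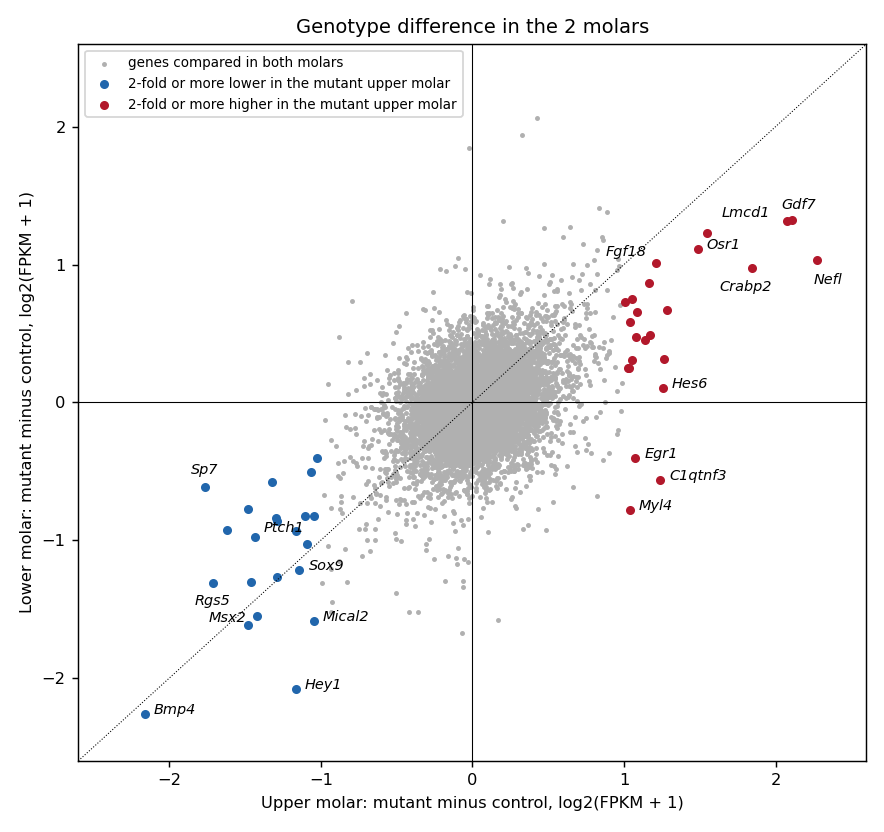
Difference between mutant and control in the lower molar against that in the upper molar, both on log2(FPKM + 1), for the 10100 genes compared in both, with the dotted line at equal values. Blue points are the 22 genes at least 2-fold lower and red points the 24 genes at least 2-fold higher in the mutant upper molar. All 22 blue points lie below 0 on both axes, and 21 of the 24 red points lie above 0 on both.

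In 9 of the 57 genes the upper molar library that was high stood at least 2-fold above all 3 others, so a value that high was found in 1 library only. The control upper molar stood apart in this way for Akr1b3, Gm9846, Icos, Pla2g7 and Trf. Pla2g7, a phospholipase of the platelet-activating factor pathway, was at 12.8 and 4.04 FPKM in the upper and 1.14 and 0.465 FPKM in the lower molar, control first. Pla2g7 was thus higher in both upper than in both lower libraries, and lower in the mutant in each molar. The mutant upper molar stood apart for 4, among them B3gat1, Cryba1 and Kera. Cryba1, a lens crystallin, was at 0.658 and 6.44 FPKM in the upper molar, from about 6 and 65 reads, and at 1.34 and 0.311 FPKM in the lower. Akr1b3 was at 8.35 FPKM in the control upper molar and under 0.05 FPKM in the 3 other libraries, and Gm9846 at 16.8 FPKM and under 0.2 FPKM in the others. The near-0 estimates of Akr1b3 and Gm9846, and with them their differences, are uncertain, because the handling of reads that align to several similar genes is not stated.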

How the data were processed

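RNA of 4 pools was amplified by NuGEN Ovation RNA-Seq v2 and sequenced from Nextera libraries, per the labels' protocols. TopHat 1.4.1, Bowtie 0.12.7 and mm9 are named in the submitters' processing notes. The Cufflinks version, strand setting and handling of multiply aligned reads are not given in the sources used here. Antisense, overlapping and near-identical genes are therefore uncertain.

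The authors' deposited tables give FPKM, normalised by the authors to transcript length and mapped reads, for 28107 RefSeq transcripts per the file headers, with an estimation status. Between 19 and 55 transcripts per library failed and 294 had too little data. The deposited coverage signal per transcript was proportional to FPKM in each library.

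FPKM was summed per gene symbol and compared as log2(FPKM + 1) with a pseudocount of 1 (pandas 2.3.3, numpy 2.4.6, Python 3.11.15). Of 10484 genes whose upper molar mean reached 1 FPKM, 88 were left out for length and 20 for a failed estimate. Genes at 2-fold or more were counted without a test. The counting code was run on simulated data with planted changes larger than 2-fold and counting noise only. That run holds no spread between embryos, pools or amplifications, so it checks the code and not the genes called. Approximate reads are coverage times length over 44.2 bases, the typical value for genes with a single read. The intervals of FPKM ratios, computed from these reads, came from scipy 1.17.1. Globins took between 0.587% and 0.733% of all FPKM in the 4 libraries.

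The members and gene lists (31 pathway and 12 marker lists) were chosen with earlier results of these data known. Unmatched symbols were Col6a3, Ccn1 and Ahsp. Named genes are Bmp4, the 15 highest and 15 lowest differences at a mean of at least 2 FPKM without provisional, small RNA or pseudogene symbols, up to 4 members of each list with the largest differences, further members where a count is given, and Msx1, Osr2, Dkk2, Pax9, Lef1, Inhba, Runx2 and Wnt1. Genes below the filter and those near the 2-fold mark were added after their values were seen. Some genes within this rule are not reported here. Gene coordinates are mm9, and promoters are from RefSeq of GRCm38.p6. Alternatives varied the pseudocount, filters, scaling, length minimum and transcript choice.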

Additional observations from a re-analysis of the deposited data

Results flagged for a closer look

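For 3 genes the mutant was at least 2-fold higher in the upper molar but below the control in the lower, and this difference between molars was not tested, since each group is 1 library. C1qtnf3, a secreted protein of the C1q and TNF related family, differed by 1.24 in the upper molar, at 2.96 and 8.35 FPKM in control and mutant, and by -0.57 in the lower molar, at 4.53 and 2.74 FPKM. Egr1, an immediate early gene, differed by 1.07 in the upper and by -0.41 in the lower molar. Myl4, a myosin light chain of embryonic muscle and atrium, differed by 1.04 in the upper molar, at 0.624 and 2.33 FPKM from about 7 and 31 reads, and by -0.78 in the lower molar, at 1.88 and 0.673 FPKM. It fell short of 2-fold once the median of its length class was subtracted. The 14 skeletal muscle markers summed to 5.47 and 5.12 FPKM in the control and mutant upper molar.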

How the results depend on the processing

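The counts of genes at 2-fold or more, 29 lower and 28 higher, moved with the processing. They were 50 and 52 with a pseudocount of 0.5, 72 and 101 with 0.1, 17 and 16 where the mean had to reach 5 FPKM, 66 and 44 without the length minimum, and 81 and 86 with the highest transcript of each gene alone. They were 34 and 33 without a filter on low values and 30 and 27 after rescaling by the median ratio. With only genes at 0.05 FPKM or more in both libraries they were 27 and 28, and centred on the median of the length class 34 and 26, both chosen after seeing the data. All 57 genes kept 2-fold under both pseudocounts, without the filter and without the length minimum, and 33 of 33 still compared did so at a mean of 5 FPKM. Of the 57, rescaling lost 1, the highest transcript alone lost Slc39a8, and the length classes lost 4, among them Bid, Gm4532 and Myl4. No list median of at least 0.25 in size and no 2-fold gene changed sign. No paired analysis was possible because the upper molar comparison has 1 library per genotype and no test, and for the same reason no library could be left out. A fit of genotype over both molars, with the molar as a block, was not run. Depth limits genes under the filter, such as Nog and Grem1 at 1 mutant read each.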

Other observations

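Genes that set position along the jaw lay on both sides of 0 in the mutant upper molar. Of 23 listed, 9 passed the filter, 5 above and 4 below 0, none at 2-fold, with a median of 0.19. Pou3f3, a factor of the upper jaw, was at 17.4 and 19.98 FPKM in the control and mutant upper molar and at 2.56 and 4.09 FPKM in the lower molar. Dlx5, a homeobox gene of the lower jaw, was at 14.6 and 10.1 FPKM in the upper and 39.2 and 28.9 FPKM in the lower molar. Shox2, a homeobox gene of palate and limb, was at 9.19 and 14.5 FPKM in the upper and 19.1 and 31.6 FPKM in the lower molar, higher in the mutant in both.

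Some values belong to no comparison above. Gm15217, a provisional gene within 1 Mb of Bmp4 with a mean under the filter, was at 1.496 and 1.38 FPKM in the 2 control libraries, upper molar first, and was listed at 0 in both mutant libraries. Asph, an enzyme with several isoforms, was left out because its estimate failed, and was listed at 16.1 FPKM in the control upper molar and at 0 in the mutant. Kit, a receptor of melanocytes and other crest cells, was at 2.56 and 4.94 FPKM in the upper and 3.36 and 6.15 FPKM in the lower molar, control first, while the melanocyte genes Dct, Pmel and Tyrp1 were under 0.1 FPKM in both upper libraries. The 13 macrophage and leukocyte markers summed to 12.8 and 12.4 FPKM in the upper molar.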
